A study of Mus musculus with 2 samples.

Results

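The 10 genes described here are 9 plasma protein genes of the acute phase response (Saa1, Saa2, Saa3, Hp, Hpx, Lrg1, Orm1, Orm2 and Orm3) and Socs3, an inhibitor of the cytokine signal that drives them. They were taken by symbol from the 32286 genes of the deposited table, and all 10 were in it. Levels were read in single-nucleus RNA libraries of regenerating mouse liver, 1 from a Cox10-/- animal and 1 from a wild-type animal. Both animals carried the floxed Cox10 allele, were kept on standard chow, and received AAV8-Cre or AAV8-GFP once by retroorbital injection, adeno-associated viruses that mainly infect hepatocytes; the labels do not say which animal received which. A 70% partial hepatectomy followed 4 weeks later. The protocol gives dissection as 4 days after surgery, the sample characteristics as 4 weeks. With 1 library per group no test was run, and every interval in parentheses is a 95% interval that covers counting error only. A gene with at least 20 UMIs over both sums met the rule for higher or lower when it differed at least 2-fold with its whole interval beyond 1.5-fold.

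The acute phase response is the change in liver secretion that follows injury, infection or surgery. Interleukin-6 reaches hepatocytes through its receptor and gp130 and activates STAT3, while interleukin-1 and tumour necrosis factor act through NF-kB and C/EBP factors, and together they raise transcription of plasma proteins. SOCS3 is induced by STAT3 and closes the loop by blocking gp130. In droplet data abundant mRNAs can also be captured away from the nuclei that made them, so their level in endothelial, stellate and myeloid nuclei was set beside that in hepatocytes.

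Saa1 (ENSMUSG00000074115.5, mm10 chr7:46740497-46742980, minus strand), Saa2 (ENSMUSG00000057465.5, chr7:46751790-46754313, plus strand) and Saa3 (ENSMUSG00000040026.8, chr7:46711998-46715700, minus strand) are neighbours on chromosome 7. Orm1, Orm3 and Orm2 lie in this order on the plus strand of chromosome 4, between 63344560 and 63365878. Hp (ENSMUSG00000031722.10) lies at chr8:109575128-109579172, Hpx (ENSMUSG00000030895.9) at chr7:105591613-105600137, Lrg1 (ENSMUSG00000037095.8) at chr17:56119678-56122001 and Socs3 (ENSMUSG00000053113.3) at chr11:117966079-117970047, all on the minus strand. Promoters of 8 of the 10 genes, from 250 bases before to 50 bases after the start site, were read from the RefSeq promoter set for GRCm38.p6. The 4 below are shown because Saa1 and Saa2 had the highest folds between the libraries, whereas neither Saa3 nor Socs3 met the rule for a difference. They cover chr7:46742931-46743230 (minus strand), chr7:46751583-46751882 (plus), chr7:46715627-46715926 (minus) and chr11:117969317-117969616 (minus), each read in the direction of transcription. Capitals mark letters of 3 motifs searched on both strands, TTGCNNAA for C/EBP, TTCNNNGAA for STAT and GGNNNTTCC for NF-kB.
Saa1: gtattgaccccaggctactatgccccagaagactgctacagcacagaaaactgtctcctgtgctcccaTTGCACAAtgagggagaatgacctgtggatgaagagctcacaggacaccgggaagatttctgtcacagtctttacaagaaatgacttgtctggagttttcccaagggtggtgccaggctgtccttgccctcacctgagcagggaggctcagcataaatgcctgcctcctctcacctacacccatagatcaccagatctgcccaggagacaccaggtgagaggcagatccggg
Saa2: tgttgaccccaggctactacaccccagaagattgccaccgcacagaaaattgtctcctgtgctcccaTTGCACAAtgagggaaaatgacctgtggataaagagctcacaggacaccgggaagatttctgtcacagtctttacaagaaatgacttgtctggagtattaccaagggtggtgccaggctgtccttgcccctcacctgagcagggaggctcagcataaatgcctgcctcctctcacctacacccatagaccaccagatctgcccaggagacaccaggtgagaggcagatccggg
Saa3: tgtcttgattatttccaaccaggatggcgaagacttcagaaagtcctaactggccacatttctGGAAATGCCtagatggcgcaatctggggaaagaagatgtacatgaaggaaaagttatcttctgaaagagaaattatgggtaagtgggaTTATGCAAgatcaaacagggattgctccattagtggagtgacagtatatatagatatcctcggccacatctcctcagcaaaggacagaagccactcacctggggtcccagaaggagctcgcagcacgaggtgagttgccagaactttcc
Socs3: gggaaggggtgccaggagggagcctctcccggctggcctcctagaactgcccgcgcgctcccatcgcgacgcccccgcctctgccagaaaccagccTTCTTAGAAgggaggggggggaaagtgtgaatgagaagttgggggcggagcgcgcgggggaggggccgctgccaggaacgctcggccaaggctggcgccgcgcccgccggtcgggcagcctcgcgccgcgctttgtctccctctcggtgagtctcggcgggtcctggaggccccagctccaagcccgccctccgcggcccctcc

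The promoters of Saa1 and Saa2 were 95.7% identical, and both held the C/EBP letters at nearly the same place, 182 to 175 and 183 to 176 bases before the start site. The Saa3 promoter was 62.7% identical to that of Saa1 and held C/EBP letters 99 to 92 bases and NF-kB letters 187 to 179 bases before the start. The Socs3 promoter held the only STAT letters, 154 to 146 bases before the start. Over the 8 promoters, C/EBP letters occurred in 6 (Saa1, Saa2, Saa3, Hpx, Orm2 and Orm3), against 10.8% of all 32851 promoters in the set. STAT letters occurred in 1, against 8.30% of all promoters, and NF-kB letters in 2 (Saa3 and Lrg1), against 18.5%. These counts describe letters within a window of 300 bases and no site was measured. The transcripts of neighbours are also alike: over the last 300 bases, where 3' tags fall, Saa1 and Saa2 were 93.3% identical, Orm1 and Orm2 97.7%, Orm1 and Orm3 91.0%, and Orm2 and Orm3 91.7%. Of 251 windows of 50 bases in the 3' end of Orm1, 147 (58.6%) also occurred in Orm2, against 24 of 251 (9.56%) shared by Saa1 with Saa2. Counts of single Orm genes, and to a lesser degree of Saa1 and Saa2, are therefore uncertain, and sums over the copies are given beside them. No annotated gene overlapped any of the 10.

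The Cox10-/- library comprised 5167 nuclei with 14476400 UMIs and the wild-type library 5448 nuclei with 17703804 UMIs, a UMI being the tag that marks 1 captured transcript, with 7 cell barcodes in common. After a limit of 10% mitochondrially encoded UMIs, 3136 Cox10-/- and 1542 wild-type nuclei remained, of which 1153 and 1493 were hepatocyte-like. Named non-hepatocyte nuclei numbered 1716 in the Cox10-/- library (826 endothelial-like, 619 stellate-like, 204 myeloid-like, 42 lymphoid-like and 25 cholangiocyte-like) and 19 in the wild-type library, so that for wild-type all 143 deposited ones were used. Levels are CPM, the usual depth-normalised unit, of the UMIs summed over the nuclei of a class. Cox10 stood at 43.5 CPM in the Cox10-/- and 35.8 CPM in the wild-type hepatocyte-like set; a 3' tag outside the deleted part cannot check the deletion.

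The hepatocyte-like nuclei of the Cox10-/- library fell into a deep and a shallow set. Deep nuclei, with at least 2000 UMIs and Cps1 at 0.5% of UMIs or more, numbered 620 with a median of 4651.5 UMIs, and shallow ones, under 1500 UMIs, 414 with a median of 1098.5 UMIs. In the wild-type library 1384 nuclei were deep (median 4493 UMIs) and 4 shallow. Cps1, which encodes the entry enzyme of the urea cycle, stood at 10666 CPM in deep and 1679 CPM in non-hepatocyte nuclei of the Cox10-/- library. Alb, the serum albumin gene, stood at 12593 CPM in those deep nuclei and 14582 CPM in the non-hepatocyte nuclei, so its transcript did not set the classes apart. Of 13 hepatocyte markers 4 (Cps1, Pck1, Hnf4a and Ass1) met the rule for higher in the deep nuclei, and all 12 endothelial and all 12 stellate markers met that for lower. These marker values describe the selection, since Cps1 gated the deep nuclei and the markers named the classes. Summed levels of non-hepatocyte markers in Cox10-/- and wild-type deep nuclei were 55.8 and 29.6 CPM for the endothelial, 232 and 110 CPM for the stellate and 65.0 and 6.13 CPM for the myeloid list, of whose 16 genes 3 were at 0 in the Cox10-/- and 5 in the wild-type deep nuclei. Their part in the results below was not tested.

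Across all hepatocyte-like nuclei, 8 of the 10 genes were higher in the Cox10-/- library and none was lower. By the same rule 7.53% of the 11396 genes with at least 20 UMIs were higher and 3.26% lower. The median log2 ratio was 2.41 over the 10 genes and -0.03 over all genes.

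The serum amyloid A genes showed the highest folds. SAA1 and SAA2 are small apolipoproteins that join high-density lipoprotein during the acute phase. Saa1 stood at 119 CPM (490 UMIs) in Cox10-/- and 3.11 CPM (22 UMIs) in wild-type hepatocyte-like nuclei, 38.3-fold higher (25 to 61.7). Saa2 stood at 44.2 CPM (182 UMIs) in the Cox10-/- and 0.989 CPM (7 UMIs) in the wild-type library, 44.7-fold higher (21.3 to 113). Summed over both copies, which leaves out the question of which copy a read came from, the fold was 39.8 (27.5 to 59.9). Both genes were thus close to absent in the wild-type library and present in the Cox10-/- library. Saa3, which in mice is also made by macrophages and other cells outside the liver, had 18 UMIs (4.37 CPM) in Cox10-/- and 10 UMIs (1.41 CPM) in wild-type nuclei and did not meet the rule (3.09-fold, 1.35 to 7.50).

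The scavengers of haemoglobin and heme had smaller folds on many more UMIs. Hp encodes haptoglobin, which binds free haemoglobin, and stood at 1106 CPM in Cox10-/- and 321 CPM in hepatocyte-like nuclei of the wild-type library, 3.45-fold higher (3.28 to 3.63). Hpx encodes hemopexin, which binds free heme, and stood at 1297 CPM in Cox10-/- and 312 CPM in wild-type nuclei, 4.16-fold higher (3.96 to 4.38). Both genes had at least 2204 UMIs in each library, so their intervals are narrow, but they measure 1 animal per group. Lrg1, a leucine-rich plasma glycoprotein, stood at 157 CPM in Cox10-/- and 23.0 CPM in wild-type nuclei, 6.80-fold higher (5.72 to 8.13).

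The orosomucoid genes encode alpha-1-acid glycoprotein, a carrier of drugs and steroids in plasma. Orm1 stood at 246 CPM in Cox10-/- and 93.0 CPM in hepatocyte-like nuclei of the wild-type library, 2.65-fold higher (2.40 to 2.92). Orm2 had 63 UMIs (15.3 CPM) in the Cox10-/- and 5 UMIs (0.707 CPM) in the wild-type library, 21.7-fold higher (8.81 to 69.0). Orm3 had 34 UMIs (8.26 CPM) in the Cox10-/- and 3 UMIs (0.424 CPM) in the wild-type library, a ratio of 19.5 (6.13 to 99.1). The 2 rare copies therefore had larger folds than Orm1, which carried most UMIs of the family, and the sum of the 3 was 2.86-fold higher (2.60 to 3.16).

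Socs3, whose product limits gp130 signalling, did not meet the rule. It had 20 UMIs (4.86 CPM) in Cox10-/- and 68 UMIs (9.61 CPM) in wild-type hepatocyte-like nuclei, a ratio of 0.506 (0.291 to 0.843). Its level was 7.5 to 15.8 CPM over the 5 wild-type hepatocyte-like clusters of at least 30 nuclei, on 2 to 35 UMIs each.

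**Figure D1:**
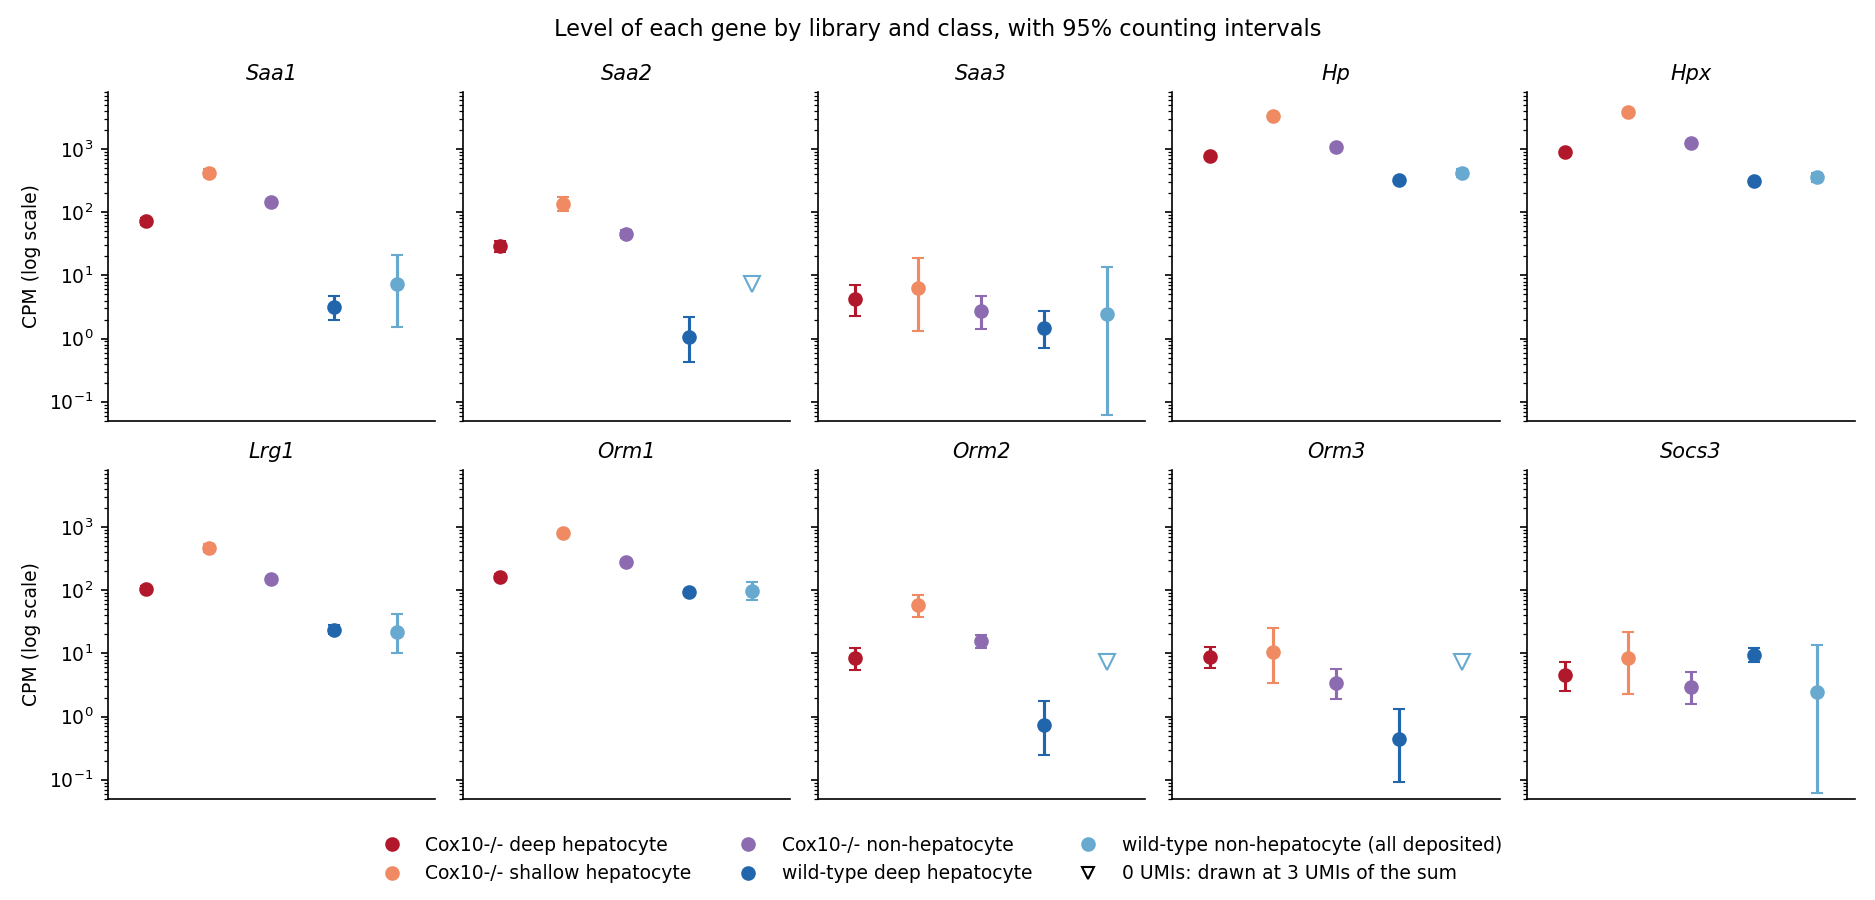
Level of each gene in CPM (log scale) in Cox10-/- deep hepatocyte, shallow hepatocyte and non-hepatocyte nuclei and in wild-type deep hepatocyte and non-hepatocyte nuclei; points are sums over the nuclei of 1 library, bars 95% counting intervals and open triangles 0 UMIs drawn at 3 UMIs. Saa1, Saa2, Hp, Hpx, Lrg1, Orm1 and Orm2 were highest in the shallow nuclei. In the Cox10-/- library non-hepatocyte nuclei (median 2438 UMIs) held more of these genes than deep hepatocyte nuclei (median 4651.5 UMIs), without matching for depth. Wild-type non-hepatocyte nuclei were all 143 deposited ones, the other classes nuclei with at most 10% mitochondrially encoded UMIs.

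With the same gate of depth and Cps1 in both libraries, 7 of the 10 genes were still higher in Cox10-/- deep nuclei, against 4.65% of the 11075 genes entered, and none was lower, against 2.98%. The median log2 ratio of the 10 was 1.84, against -0.02 over all genes. Saa1 stood at 72.2 CPM (242 UMIs) in Cox10-/- and 3.14 CPM (21 UMIs) in wild-type deep nuclei, 23.0-fold higher (14.7 to 37.8). Saa2 was 27.6-fold (12.9 to 70.6), Lrg1 4.44-fold (3.67 to 5.39), Hpx 2.90-fold (2.74 to 3.07) and Hp 2.41-fold higher (2.28 to 2.56). Each of these 5 folds was smaller than over all hepatocyte-like nuclei. Orm2 was 11.2-fold higher (4.26 to 37.0) and Orm3, with 29 and 3 UMIs, had a ratio of 19.3 (5.98 to 98.9), nearly that over all nuclei. Orm1 no longer met the rule, at 164 CPM in Cox10-/- and 92.3 CPM in wild-type deep nuclei (1.77-fold, 1.58 to 1.99), nor did the sum of the 3 Orm genes (1.93-fold, 1.73 to 2.17). It also missed it when hepatocyte-like nuclei under 1500 UMIs were left out (log2 ratio 0.92) and when the shallow cluster was (0.84). Socs3 had 15 UMIs (4.47 CPM) in Cox10-/- and 63 UMIs (9.42 CPM) in wild-type deep nuclei (0.475, 0.251 to 0.844), and Saa3 14 and 10 UMIs (2.79, 1.15 to 7.03).

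**Figure D2:**
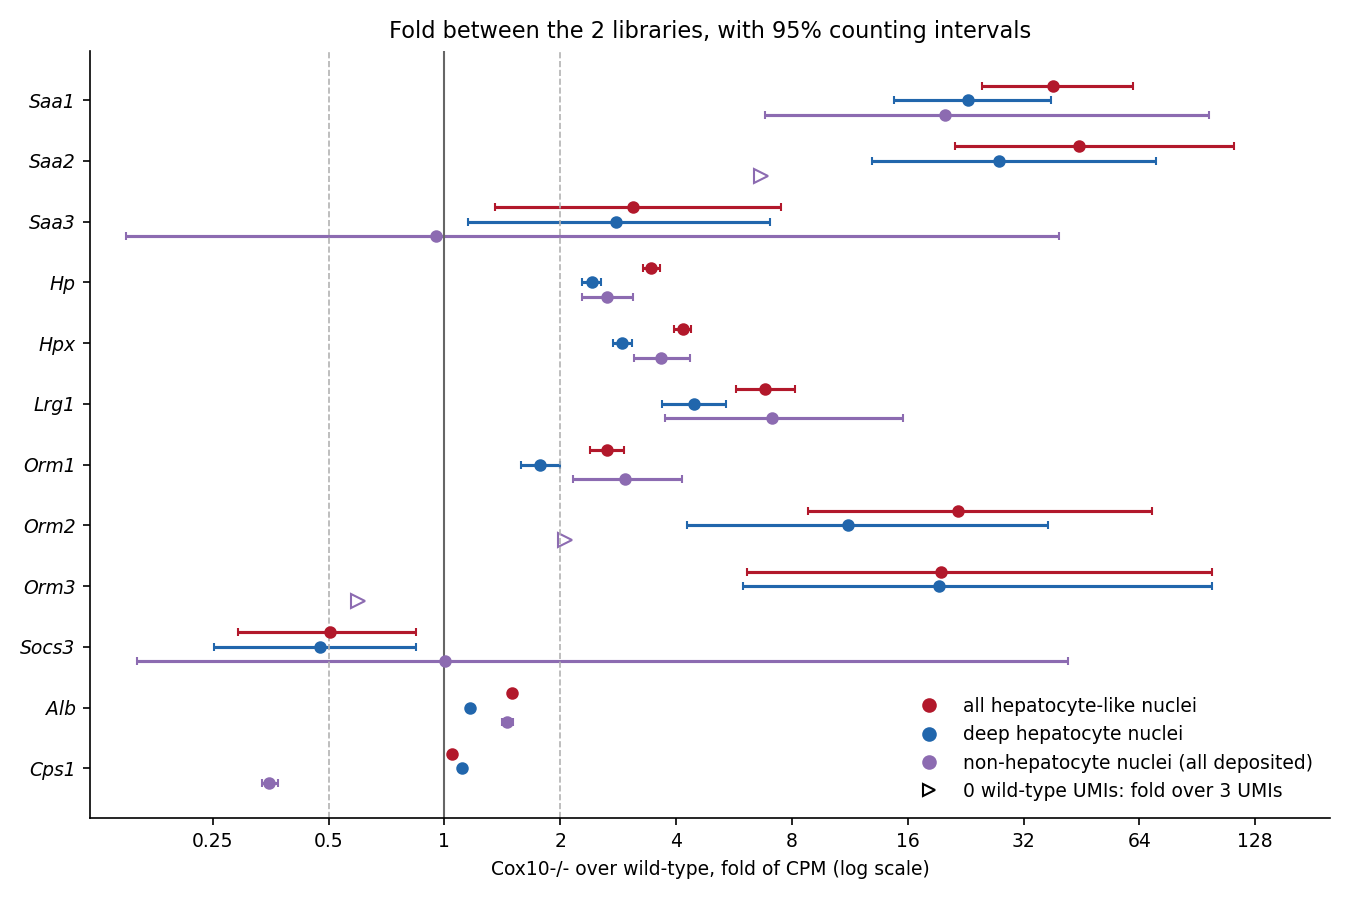
Fold of CPM, Cox10-/- over wild-type (log scale), for each gene and for the yardsticks Alb and Cps1 in all hepatocyte-like, deep hepatocyte and non-hepatocyte nuclei; bars are 95% counting intervals, arrowheads a fold over 3 UMIs where wild-type had 0, and dashed lines mark 2-fold. Folds of Hp, Hpx, Lrg1 and Orm1 in non-hepatocyte nuclei were as large as those in deep hepatocyte nuclei or larger. The sets are unlike: non-hepatocyte nuclei were all deposited ones, hepatocyte nuclei those with at most 10% mitochondrially encoded UMIs.

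In non-hepatocyte nuclei Saa1, Saa2, Hp, Hpx, Lrg1, Orm1 and Orm2 were also higher in the Cox10-/- library. Over all deposited non-hepatocyte nuclei, 2942 from Cox10-/- and 143 from wild-type, 7 of the 8 genes with at least 20 UMIs were higher, against 3.89% of the 12788 genes entered, and none was lower, against 4.83%. This comparison was added after the data were seen. Hp stood at 1113 CPM in Cox10-/- and 421 CPM in wild-type non-hepatocyte nuclei, 2.64-fold higher (2.27 to 3.09). Hpx was 3.67-fold (3.11 to 4.35), Lrg1 7.11-fold (3.73 to 15.6) and Orm1 2.95-fold higher (2.16 to 4.14) in these nuclei. Saa1 had 1073 UMIs (146 CPM) in Cox10-/- and 3 UMIs (7.30 CPM) in wild-type, a ratio of 19.9 (6.81 to 96.9). Saa2, at 48.6 CPM in Cox10-/- non-hepatocyte nuclei, and Orm2, at 15.1 CPM, had 0 UMIs in wild-type. Against a floor of 3 UMIs over the sum they were 6.65-fold and 2.06-fold higher, which are not interval limits. Set against Alb, the lower limits of their folds were 3.69 and 1.13. Orm3, called higher in both hepatocyte comparisons, had 32 UMIs (4.34 CPM) in Cox10-/- and 0 in wild-type non-hepatocyte nuclei, which is under the floor, and did not meet the rule. Saa3, with 17 and 1 UMIs, and Socs3, with 18 and 1, did not reach 20 UMIs. Cps1 was lower in the Cox10-/- non-hepatocyte nuclei, with 1689 CPM in Cox10-/- and 4812.5 CPM in wild-type nuclei.

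Within the Cox10-/- library, none of the 10 genes was higher or lower in deep hepatocyte than in non-hepatocyte nuclei, where 13.2% of 12454 genes were higher and 24.3% lower. Saa1 stood at 72.2 CPM (63.4 to 81.9) in deep hepatocyte and 143 CPM (132 to 155) in non-hepatocyte nuclei, a ratio of 0.505 (0.434 to 0.587) at the edge of the rule. It passed as lower when mitochondrially encoded genes were left out of the library size, when the highest 4% of doublet scores were, with a gate of 3000 UMIs and 1% Cps1, and against endothelial-like nuclei alone (log2 ratios of -1.04, -1.0, -1.45 and -1.07). Ratios of deep over non-hepatocyte nuclei were 0.723 for Hp (0.689 to 0.759), 0.713 for Hpx (0.682 to 0.746), 0.692 for Lrg1 (0.607 to 0.788) and 0.591 for Orm1 (0.533 to 0.654). For Saa2 and Orm2 the ratios were 0.640 (0.497 to 0.819) and 0.535 (0.332 to 0.842), so 7 genes had ratios under 1 with intervals that did not reach it. Median depth was 4651.5 UMIs in deep hepatocyte and 2438 UMIs in non-hepatocyte nuclei. In bins of 2000 to 3000, 3000 to 5000 and 5000 UMIs or more, Saa1 stood at 145, 89.8 and 59.1 CPM in hepatocyte-like nuclei. In non-hepatocyte nuclei it stood at 153, 122 and 49.0 CPM. Hp stood at 1313, 899 and 666 CPM in hepatocyte-like and 1113, 892 and 646 CPM in non-hepatocyte nuclei of these bins. The part of depth in the 7 ratios was not tested. The median log2 ratio of the 10 was -0.51, against -0.28 over all genes. In the wild-type library, over all deposited nuclei, Hp stood at 375 CPM in deep hepatocyte and 421 CPM in non-hepatocyte nuclei (0.890, 0.765 to 1.04), and Hpx at 365 and 355 CPM in the same order (1.03, 0.872 to 1.22).

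3 genes had ratios above 1. Orm3 had 29 UMIs (8.65 CPM) in deep hepatocyte and 15 UMIs (3.39 CPM) in non-hepatocyte nuclei of the Cox10-/- library, a ratio of 2.55 (1.32 to 5.12), which met the rule with DESeq2 size factors alone (log2 ratio 1.52). Saa3 had 14 and 12 UMIs (1.54, 0.661 to 3.64) and Socs3 15 and 13 UMIs (1.52, 0.676 to 3.48) in deep hepatocyte and non-hepatocyte nuclei, too few for a direction. Of the non-hepatocyte UMIs of Socs3, 11 of 13 were in endothelial-like nuclei (5.59 CPM, 2.79 to 10.0), which held 1968183 of all 4421720 non-hepatocyte UMIs. Stellate-like nuclei had 2 (1.16 CPM, 0.140 to 4.17) and myeloid-like nuclei 0 (up to 6.99 CPM). These intervals overlap, so no source is read from the count.

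Levels in the non-hepatocyte classes lay close together. Saa1 stood at 152 CPM in endothelial-like, 142 CPM in stellate-like, 127 CPM in myeloid-like, 116 CPM in lymphoid-like and 87.3 CPM in cholangiocyte-like nuclei. Intervals of these 5 levels overlapped for every pair. In the order over the named classes of the Cox10-/- library, shallow hepatocyte nuclei came first for Saa1 at 417 CPM (360 to 479), and deep hepatocyte nuclei last at 72.2 CPM. The lymphoid-like level rested on 12 UMIs, and its interval (60.1 to 203) held the deep hepatocyte level. Unnamed clusters of at least 30 nuclei, left out of this order, stood at 66.2, 72.1 and 157 CPM of Saa1. Hp took the same first place at 3277 CPM in shallow hepatocyte nuclei, with 1166 CPM in endothelial-like, 1115 CPM in lymphoid-like, 1052 CPM in myeloid-like, 980 CPM in stellate-like, 796 CPM in cholangiocyte-like and 774 CPM in deep hepatocyte nuclei. The last 2 did not differ beyond their intervals (624 to 1001 and 745 to 805).

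Set against Alb, Hp stood close together in the non-hepatocyte classes, while rarer genes spread more widely. Hp had 73.4 UMIs per 1000 Alb UMIs in endothelial-like, 73.6 in stellate-like, 72.6 in myeloid-like, 73.5 in lymphoid-like and 78.0 in cholangiocyte-like nuclei of the Cox10-/- library. Deep hepatocyte nuclei had 61.5 and shallow ones 83.8, while wild-type deep nuclei had 29.7. Saa1 had 9.56, 10.7, 8.76, 7.67 and 8.55 UMIs per 1000 Alb UMIs in endothelial-like, stellate-like, myeloid-like, lymphoid-like and cholangiocyte-like nuclei, 5.73 in deep and 10.7 in shallow hepatocyte nuclei of the Cox10-/- library, and 0.290 in wild-type deep nuclei. Orm2 had 0.954 UMIs per 1000 Alb UMIs in stellate-like (0.598 to 1.44) and 1.70 in myeloid-like nuclei (0.905 to 2.91), and Lrg1 9.93 in stellate-like (8.69 to 11.3) and 14.7 in lymphoid-like nuclei (9.32 to 22.1), each pair with overlapping intervals. The ratio to Alb in the shallow hepatocyte nuclei was thus nearer to that of the non-hepatocyte classes than to that of the deep hepatocyte nuclei for Saa1. Deep over non-hepatocyte, the fold per Alb was 0.585 for Saa1 (0.502 to 0.679) and 0.838 for Hp (0.798 to 0.879), and for Orm3 2.95 (1.53 to 5.93). Between the libraries, the fold per Alb in deep nuclei stayed at 19.7 for Saa1 (12.6 to 32.5), 2.07 for Hp (1.96 to 2.20) and 2.49 for Hpx (2.35 to 2.64).

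**Figure D3:**
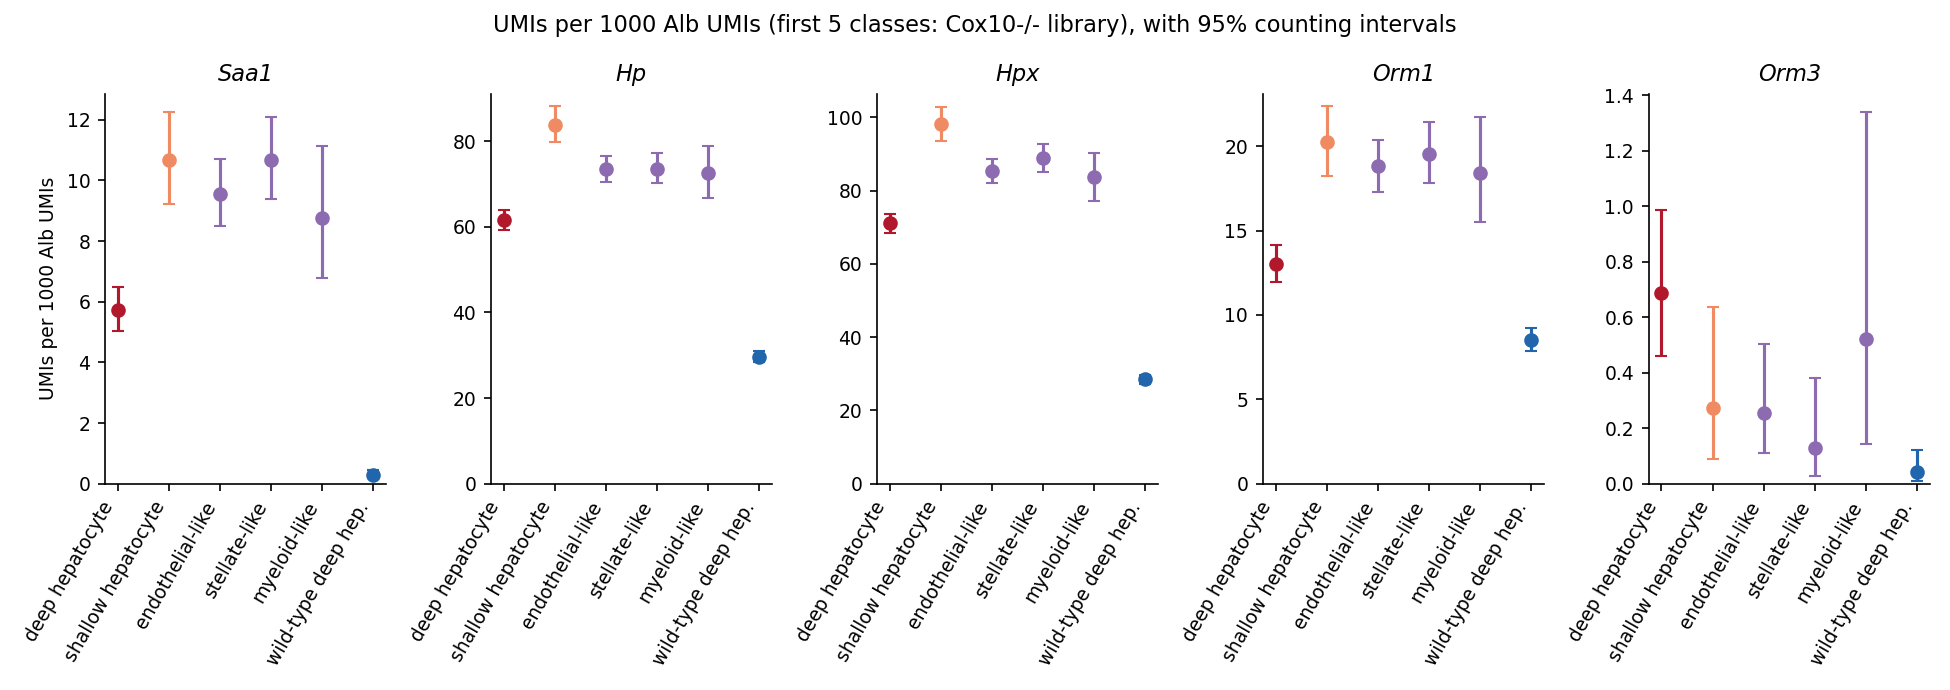
UMIs per 1000 Alb UMIs for Saa1, Hp, Hpx, Orm1 and Orm3 in classes of the Cox10-/- library and in wild-type deep hepatocyte nuclei, with 95% counting intervals. Hp lay between 72.6 and 73.6 in the endothelial-like, stellate-like and myeloid-like nuclei and at 61.5 in the deep hepatocyte nuclei; Orm3 had its highest value, 0.687, in the deep hepatocyte nuclei.

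Deep and shallow hepatocyte nuclei of the Cox10-/- library differed for 7 genes, all lower in the deep ones, against 10.5% of 9304 genes lower and 10.4% higher. Hp stood at 774 CPM in deep and 3277 CPM in shallow nuclei, 4.23-fold lower in the deep nuclei (3.97 to 4.51). Hpx stood at 895 CPM in deep and 3836 CPM in shallow nuclei, 4.29-fold lower (4.04 to 4.54). Saa1 was 5.77-fold (4.76 to 7.0), Saa2 4.70-fold (3.38 to 6.52), Lrg1 4.45-fold (3.74 to 5.28), Orm1 4.83-fold (4.22 to 5.52) and Orm2 6.87-fold lower (3.90 to 12.1). Alb was 3.1-fold lower in the deep nuclei (3.05 to 3.16), and Cps1, which the gate of the deep nuclei itself used, had a ratio of 1.77 (1.70 to 1.84). Orm3 had 29 UMIs (8.65 CPM) in deep and 5 UMIs (10.6 CPM) in shallow nuclei and did not meet the rule (0.814, 0.311 to 2.69). Saa3, with 14 and 3 UMIs, and Socs3, with 15 and 4 UMIs, fell under the minimum of 20 UMIs.

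The level followed depth within each class as well. In Cox10-/- hepatocyte-like nuclei Saa1 stood at 432 CPM with 1000 to 1500 UMIs per nucleus, at 227 CPM with 1500 to 2000, at 145 CPM with 2000 to 3000, at 89.8 CPM with 3000 to 5000 and at 59.1 CPM with 5000 or more. In Cox10-/- non-hepatocyte nuclei Saa1 stood at 259, 162, 153, 122 and 49.0 CPM over the same 5 bins. From 2000 UMIs on, the levels of Saa1 in hepatocyte-like and non-hepatocyte nuclei of the same bin differed by less than 1.5 times. Depth was not matched within bins, and the deepest non-hepatocyte bin held 36 nuclei with 11 UMIs of Saa1 (24.5 to 87.7 CPM). In wild-type hepatocyte-like nuclei Saa1 stood at 7.36, 3.84 and 1.99 CPM over the 3 deepest bins. Hp followed the same course, at 666 CPM in Cox10-/- hepatocyte-like and 646 CPM in Cox10-/- non-hepatocyte nuclei of 5000 UMIs or more, and 271 CPM in hepatocyte-like nuclei of the wild-type library of that depth. Cps1 ran the other way, at 6038 CPM in Cox10-/- hepatocyte-like nuclei with 1000 to 1500 UMIs and 10904 CPM in those with 5000 or more.

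**Figure D4:**
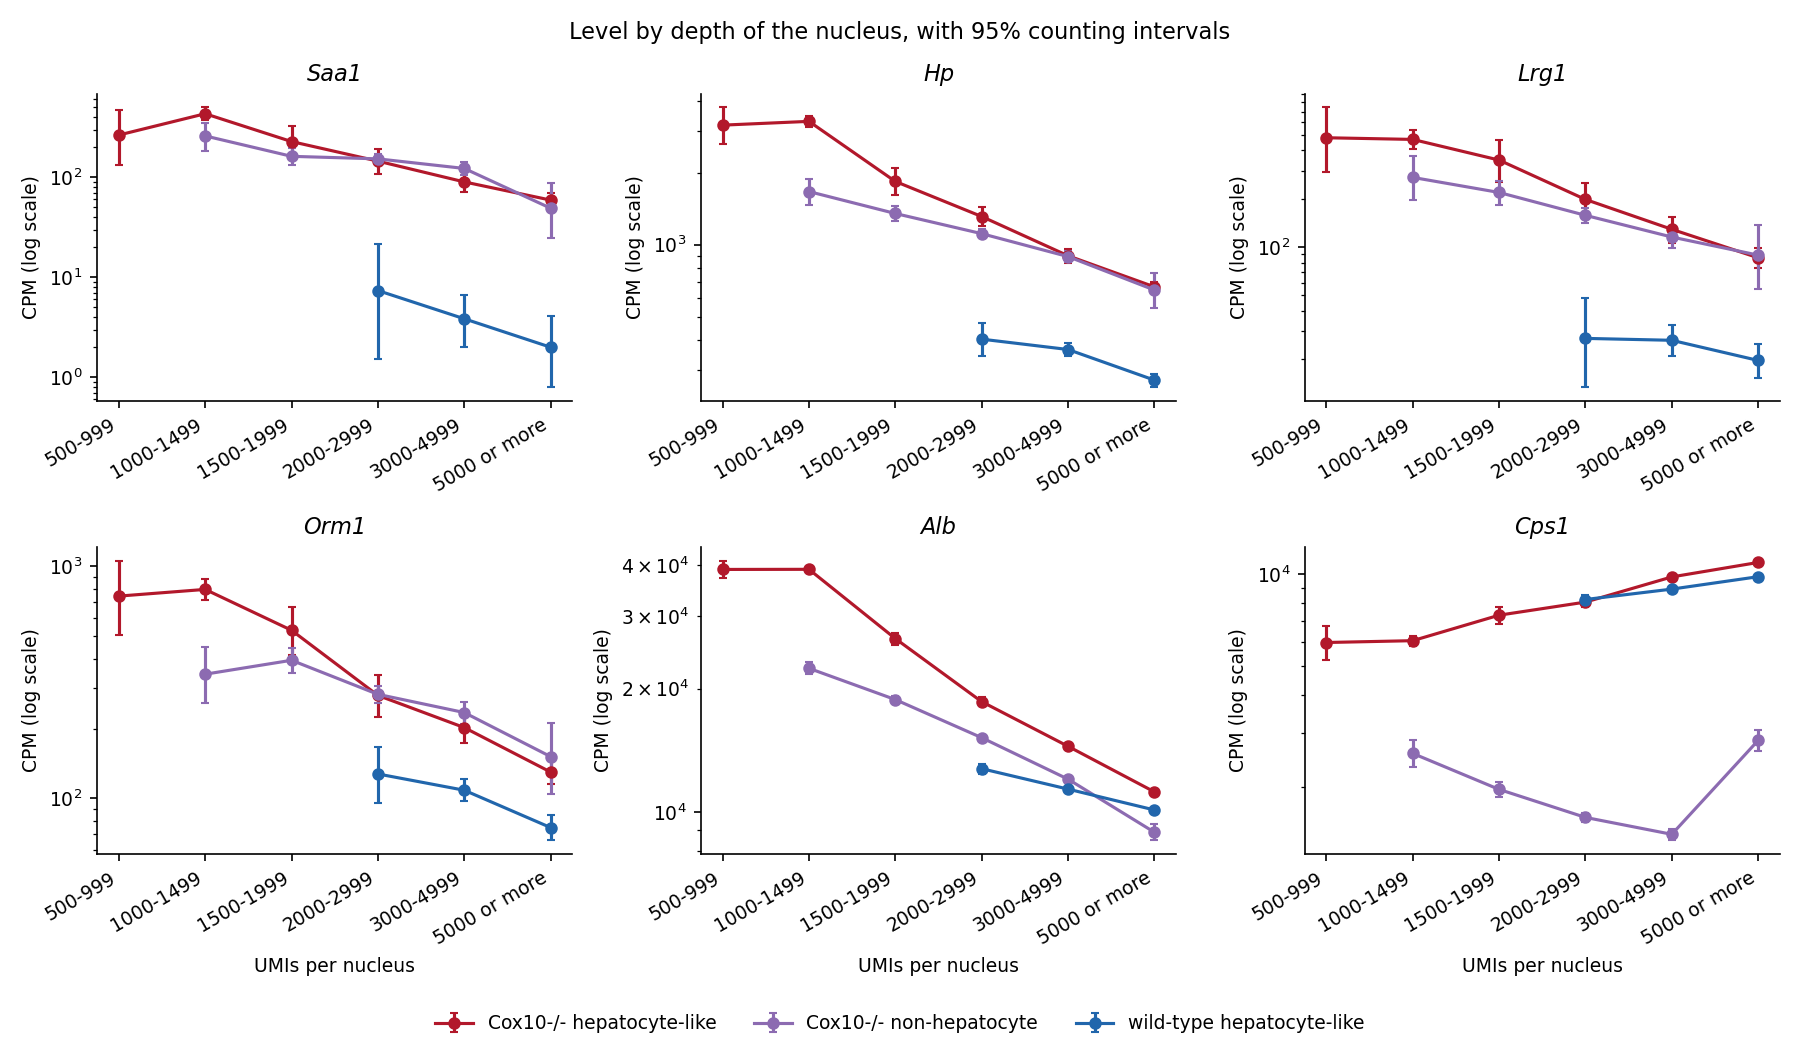
Level in CPM (log scale) of Saa1, Hp, Lrg1, Orm1, Alb and Cps1 by UMIs per nucleus, in hepatocyte-like and non-hepatocyte nuclei of the Cox10-/- library and hepatocyte-like nuclei of the wild-type library; bars are 95% counting intervals and bins under 20 nuclei are left out. From 1000 UMIs on, the 4 plasma protein genes and Alb stood lower in deeper Cox10-/- hepatocyte-like nuclei and Cps1 stood higher, and in the deepest bin Saa1 stood at 59.1 CPM in Cox10-/- hepatocyte-like, 49.0 CPM in Cox10-/- non-hepatocyte and 1.99 CPM in hepatocyte-like nuclei of the wild-type library.

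Mitochondrially encoded UMIs, which a clean nucleus does not hold, moved with the levels in deep hepatocyte nuclei too. Among deep Cox10-/- nuclei of all deposited ones, Saa1 stood at 48.3 CPM with under 2% mitochondrially encoded UMIs, 71.1 CPM at 2 to 5%, 120 CPM at 5 to 10% and 128.4 CPM at 10 to 20%. Hp stood at 598, 791, 1045 and 1268 CPM over the same 4 bins. In wild-type deep nuclei Saa1 stood at 0, 3.51 and 4.44 CPM in the bins from 2% upward, and Hp at 241, 330 and 427 CPM. Cox10-/- non-hepatocyte nuclei, in the same bins from 2% upward, had Saa1 at 114, 149 and 149 CPM and Hp at 834, 1119 and 1177 CPM. Their levels thus hardly changed above 5%. The cleanest 124 Cox10-/- deep nuclei thus still held more of both transcripts than any wild-type bin. The 4 bins of Cox10-/- deep nuclei held 124, 351, 145 and 95 nuclei with 1013566, 1786785, 552044 and 474939 UMIs, so depth per nucleus differed between them. Depth was not held constant, and its part in these levels was not tested. How much of each level was nuclear was not tested.

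Shares of nuclei gave the same order once each nucleus was thinned to 1000 UMIs. A Saa1 UMI was found in 9.52% (7.32 to 12.1) of 620 deep and 34.5% (29.7 to 39.6) of 371 shallow Cox10-/- hepatocyte nuclei, in 13.4% (11.8 to 15.1) of 1710 Cox10-/- non-hepatocyte nuclei and in 0.289% (0.0788 to 0.738) of 1384 wild-type deep nuclei. Without thinning these shares were 32.1%, 35.5%, 30.2% and 1.37%, at median depths of 4651.5, 1098.5, 2438 and 4493 UMIs; 43 shallow and 6 non-hepatocyte nuclei under 1000 UMIs were left out of the thinned shares. The share in deep hepatocyte nuclei lay below that in Cox10-/- non-hepatocyte nuclei, so no hepatocyte expression is read from it; how much of it was free RNA was not tested. Hp gave 58.6% in deep hepatocyte and 66.1% in non-hepatocyte nuclei of the Cox10-/- library, and 27.5% in wild-type deep nuclei. No deep Cox10-/- nucleus held more than 4 UMIs of Saa1 or of Saa2 before thinning, so no few nuclei carried the level. Hpx reached 45 UMIs in 1 deep Cox10-/- nucleus, against at most 8 in a wild-type deep nucleus.

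**Figure D5:**
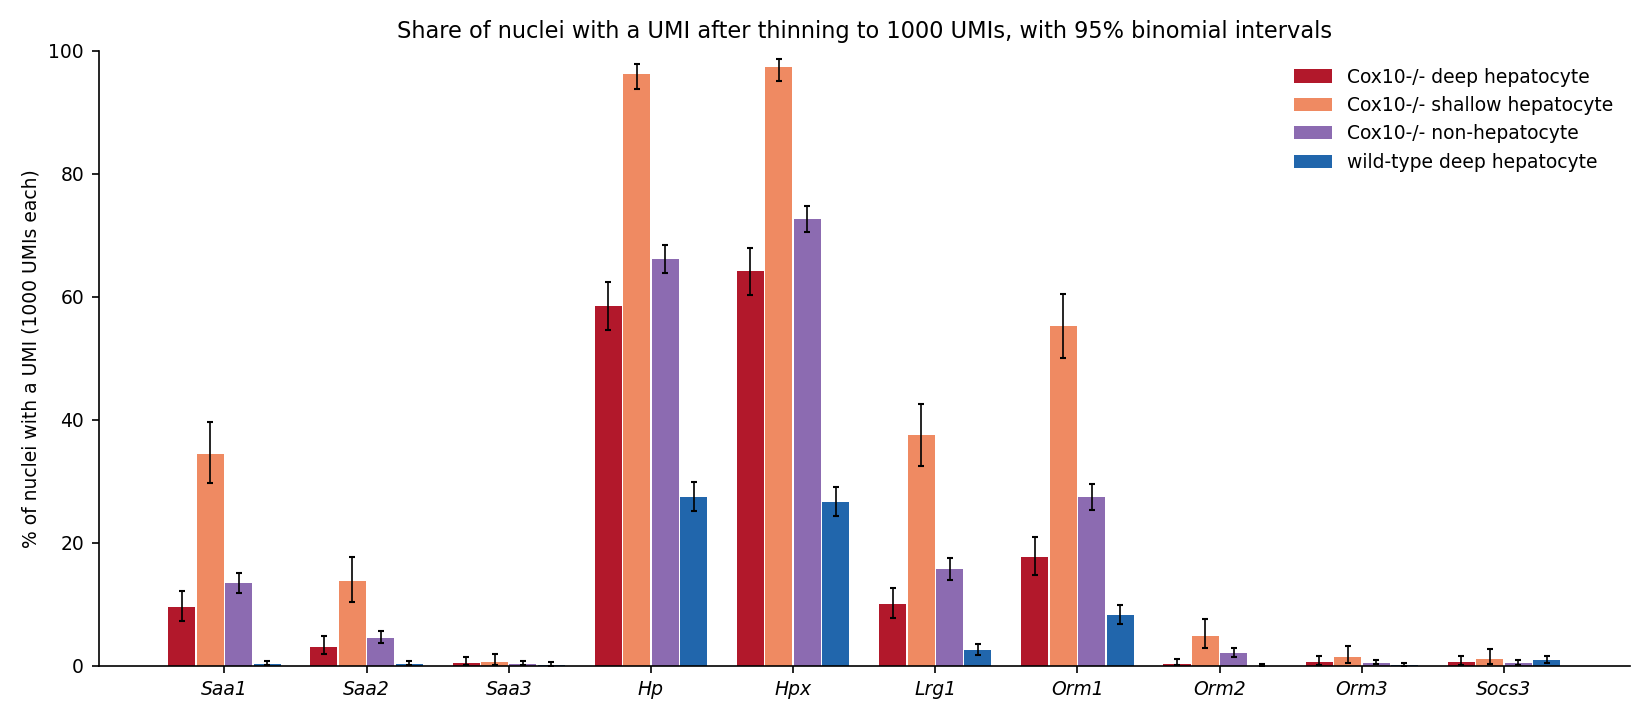
Share of nuclei with at least 1 UMI of each gene after thinning every nucleus to 1000 UMIs, in % with 95% Clopper-Pearson intervals, for deep hepatocyte, shallow hepatocyte and non-hepatocyte nuclei of the Cox10-/- library and deep hepatocyte nuclei of the wild-type library. For Saa1 the shares were 9.52%, 34.5%, 13.4% and 0.289% in this order of classes.

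Other acute phase genes were read in the same comparisons. Within the Cox10-/- library, 5 of 33 further positive genes were higher in deep hepatocyte than in non-hepatocyte nuclei and 3 were lower. Over all genes 13.2% were higher and 24.3% lower there. The median log2 ratio of this list was -0.27, against -0.28 over all genes. Of 33 further positive acute phase genes with at least 20 UMIs, 10 were higher in Cox10-/- hepatocyte-like nuclei and none lower, against 7.53% and 3.26% over all genes, with a median log2 ratio of 0.59, against -0.03 over all genes. In deep nuclei 3 of 33 were higher, Lcn2, Mt1 and Mt2, and none was lower, against 4.65% and 2.98% over all genes. Lcn2, the siderophore-binding lipocalin, stood at 15.2 CPM (51 UMIs) in Cox10-/- and 0.598 CPM (4 UMIs) in wild-type deep nuclei, 25.4-fold higher (9.35 to 96.9), but at 18.3 CPM in Cox10-/- non-hepatocyte nuclei. The metallothioneins, which bind zinc and copper, were both higher in Cox10-/- deep nuclei than in wild-type ones and higher than in non-hepatocyte nuclei of their own library. Mt1 stood at 448 CPM in Cox10-/- and 82.1 CPM in wild-type deep nuclei, 5.46-fold higher (4.95 to 6.03), and at 201 CPM in Cox10-/- non-hepatocyte nuclei (deep over non-hepatocyte 2.23, 2.05 to 2.43). Mt2 was 7.81-fold higher between the libraries (6.32 to 9.72) and 2.67-fold higher over the non-hepatocyte nuclei (2.26 to 3.16). Il1rn, the interleukin-1 receptor antagonist, had 19 and 9 UMIs in Cox10-/- and wild-type hepatocyte-like nuclei (3.63-fold, 1.56 to 9.11) and missed the rule in deep ones.

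Crp, C-reactive protein, named after its values were seen, is a contrast among these genes. It stood at 697 CPM in Cox10-/- and 686 CPM in wild-type deep nuclei (1.02, 0.966 to 1.07), and at 147 CPM in Cox10-/- non-hepatocyte nuclei, 4.74-fold higher in the deep nuclei of that library (4.34 to 5.18). In mice Crp responds weakly in the acute phase. Deep hepatocyte nuclei thus held more Crp than the other nuclei of their library, which was not so for Saa1.

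Negative acute phase genes, plasma proteins whose synthesis falls in the response, had no member called lower. Of 19 in the list, 2 were higher in Cox10-/- hepatocyte-like nuclei, Apoc3 at 2.29-fold (2.16 to 2.43) and Apom at 2.73-fold (2.37 to 3.14), and none was lower, against 7.53% higher and 3.26% lower over all genes; Trf stood at 1.83-fold (1.78 to 1.88) and Apoa4 at 1.68-fold (1.39 to 2.03). In deep nuclei none of the 19 met the rule in either direction, with a median log2 ratio of 0.19. Over all genes 4.65% were higher and 2.98% lower in deep nuclei. Ribosomal protein transcripts, mature mRNAs listed as a sign of cytoplasmic RNA, moved with the positive genes. Of 15 ribosomal genes 12 were higher in Cox10-/- hepatocyte-like nuclei (median log2 ratio 1.45) and 7 in deep nuclei (0.83). Over all genes 7.53% were higher in hepatocyte-like and 4.65% in deep nuclei. In deep over shallow nuclei 14 of the 15 ribosomal genes, 19 of 32 positive and 15 of 19 negative acute phase genes were lower. Over all genes 10.5% were lower and 10.4% higher in that comparison. Immediate early and heat shock genes, a list for tissue handling, were higher for 10 of 13 in both hepatocyte comparisons (median 1.35 and 1.36). The shares over all genes were again 7.53% and 4.65%. The part of these shifts in the folds above was not tested.

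Some signalling genes upstream of the acute phase met the rule, in both directions, and most did not. Of 21 IL-6 and STAT3 pathway genes with at least 20 UMIs, 2 were higher and 3 lower in Cox10-/- hepatocyte-like nuclei, and the same counts held in deep nuclei (median log2 ratio -0.22 and -0.19). Over all genes 7.53% were higher and 3.26% lower in hepatocyte-like nuclei, and 4.65% higher and 2.98% lower in deep nuclei, and 16 of the 21 met the rule in neither direction. The 3 lower genes, Socs2, Cish and Pim1, are known targets of STAT factors, STAT5 among them. Socs2 had 10 UMIs (2.98 CPM) in Cox10-/- and 134 UMIs (20.04 CPM) in wild-type deep nuclei, 6.72-fold lower (3.54 to 14.3). Cish was 3.47-fold (1.97 to 6.59) and Pim1 2.84-fold lower (2.21 to 3.70) in Cox10-/- deep nuclei. Il22ra1, the interleukin-22 receptor, had 19 UMIs in Cox10-/- and 3 in wild-type deep nuclei, a ratio of 12.6 (3.72 to 66.6), and Junb, an AP-1 factor that also stands in the handling list, was 2.56-fold higher (2.33 to 2.81). The receptor Il6ra stood at 453 CPM in Cox10-/- and 344 CPM in wild-type deep nuclei and Stat3 at 239 and 188 CPM in the same order, neither meeting the rule.

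Of 24 genes of the NF-kB and C/EBP list, Cebpb and Tnfrsf1b were higher in Cox10-/- deep nuclei and none was lower (median log2 ratio 0.20), against 4.65% higher and 2.98% lower over all genes. Cebpb, a transcription factor of many acute phase promoters, stood at 332 CPM in Cox10-/- and 151 CPM in wild-type deep nuclei, 2.20-fold higher (2.02 to 2.40), and at 153 CPM in Cox10-/- non-hepatocyte nuclei. Tnfrsf1b, a receptor for tumour necrosis factor, stood at 135 CPM in Cox10-/- and 55.8 CPM in wild-type deep nuclei, 2.42-fold higher (2.10 to 2.78). Nfkbia, the NF-kB inhibitor, was 2.02-fold higher over all hepatocyte-like nuclei (1.66 to 2.47) and missed the rule in deep ones, and Cebpd, with 39 and 28 UMIs, missed it in both. Cebpb and Tnfrsf1b were also higher in deep hepatocyte than in non-hepatocyte nuclei of the Cox10-/- library, by 2.17-fold (1.97 to 2.39) and 2.64-fold (2.24 to 3.11), as none of the 10 members was. The list went both ways there: of 27 genes entered, 6 were higher and 7 lower. The lower ones were Cebpd, Nfkb1, Relb, Tnfaip3, Irak3, Irak4 and Tlr4. Its median log2 ratio was -0.39, against -0.28 over all genes, of which 13.2% were higher and 24.3% lower.

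Of 17 cytokine and chemokine genes 2 reached 20 UMIs in hepatocyte-like nuclei. Cxcl1, a neutrophil attractant, stood at 72.2 CPM in Cox10-/- and 28.3 CPM in wild-type deep nuclei, 2.55-fold higher (2.10 to 3.11), and Il18 at 18.2 and 27.1 CPM in the same order without meeting the rule. Ligand levels in other Cox10-/- nuclei, named after their values were seen, included Il1a at 105 CPM (90.9 to 120) in endothelial-like and Il1b at 92.8 CPM (68.7 to 123) in myeloid-like nuclei, both with 0 UMIs in deep hepatocyte nuclei, which allows up to 0.895 CPM there. Il6 had 1 UMI in myeloid-like nuclei and 0 in endothelial-like and stellate-like nuclei, which allow up to 1.52 and 1.73 CPM, so it was not detectable at this depth. Between the libraries, 8 of the 17 reached 20 UMIs over all deposited non-hepatocyte nuclei, and none of the 8 met the rule in either direction. Their median log2 ratio was 0.88, against 0.18 over all genes. The wild-type sum held 411016 UMIs and the Cox10-/- sum 7370713, so a missed rule does not show equal levels. Over all genes 3.89% were higher and 4.83% lower in that comparison.

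Genes with the pattern most like that of the members over 7 sums of a library and class (at least 50 nuclei, all deposited nuclei) were ranked among 9369 genes by the correlation of log2(CPM + 10). For Saa1 these were Cyp3a11 (r = 0.996), Gstm1 (0.996), Cyp1a2 (0.995), Naca (0.992) and Mif (0.989), of which the first 3 encode enzymes of xenobiotic metabolism. For Hp they were Gstp3, Aldh1b1, Cyp2a5, Cyp3a11 and Vtn, between 0.989 and 0.986. For Socs3 they were Tulp2 (0.982), Tsc1 (0.974), Zmym5 (0.973), Ehmt1 (0.970) and Sucla2 (0.966). Of the 7 sums 6 share the Cox10-/- library, so these values describe 1 difference between libraries and small differences among classes.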

How the data were processed

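Nuclei of 1 Cox10-/- and 1 wild-type regenerating liver were profiled on a 10x 3' v3.1 kit, with 7000 nuclei loaded per sample, per the labels' protocols. The deposited values are raw counts, UMIs per gene and nucleus, which the authors made with Cell Ranger 7.0 on mm10, per the submitters' processing notes; the setting for intronic reads and any filter on nuclei were not given in the sources used here. The members and lists were chosen with earlier results of these data known, and so were the naming thresholds.

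A minimum of 500 UMIs and 300 genes was set, which every deposited nucleus met. The deposited nuclei held 601 to 3999 genes in the Cox10-/- and 604 to 3879 in the wild-type library. Both libraries reached at most 19.99% mitochondrially encoded UMIs. After clustering, nuclei above 10% mitochondrially encoded UMIs were set aside, except where all deposited nuclei are named. Clusters (scanpy 1.11.5, 2000 variable genes without the members, acute phase lists and mitochondrial genes, 30 components, 15 neighbours, Leiden resolution 1.0, seed 1) gave 21 groups. A non-hepatocyte cluster needed markers of 1 class in excess by a median of 2 or more (log2), under 1 for the others, and at least 3 detected markers with 1 or more among its top 10 genes. A hepatocyte-like cluster needed at least 3 detected markers, an excess under 0.5 for other classes and a median marker ratio above 1 over the non-hepatocyte nuclei of its library. Scrublet marked 14 Cox10-/- and 0 wild-type nuclei as doublets; it had not worked, and no nucleus was removed on its call.

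UMIs were summed per library and class, since nuclei are not replicates, with exact Poisson, Clopper-Pearson and conditional binomial 95% intervals. Log2 ratios used a prior of 0.5 UMI, and a count of 0 a floor of 3 UMIs over the sum. The rule for a difference was checked on simulated Poisson counts with planted folds, the error that the intervals assume. Variation between animals, free RNA and differences in depth were not part of that check. Named genes were the 10 members, up to 4 of each list by absolute log2 ratio in hepatocyte-like nuclei, Alb, Cps1, and up to 5 genes most like Saa1, Hp and Socs3 (at least 200 UMIs). Other named genes were chosen after their values were seen. Gene positions and transcripts were from GENCODE vM21, promoters from RefSeq. Alternatives included TMM (edgeR 4.0.16) and DESeq2 1.42.0 factors.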

Additional observations from a re-analysis of the deposited data

How the results depend on the processing

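Of the counts of members higher or lower, those of the Cox10-/- over wild-type comparisons and of deep over shallow nuclei stayed within 1.5 times under every alternative run. For deep hepatocyte over non-hepatocyte nuclei, where no member was called, 1 member (Orm3) was higher with DESeq2 size factors. In that comparison 1 member (Saa1) was lower with a library size without mitochondrially encoded genes, without the highest 4% of doublet scores, with a deep gate at 3000 UMIs and Cps1 1%, and against endothelial-like nuclei alone; its log2 ratio of deep over non-hepatocyte nuclei ran from -1.45 to -0.78. No log2 ratio of a called member changed sign under any alternative. Saa3 met the rule for higher in Cox10-/- with all deposited nuclei, at a log2 ratio of 1.78 in hepatocyte-like and 1.72 in deep nuclei; the cause was not tested. Without the shallow cluster, an alternative chosen after the data were seen, 7 members were higher in Cox10-/- hepatocyte-like nuclei and the log2 ratio of Saa1 was 4.53, against 5.22 with it. The median log2 ratio of all genes in deep over non-hepatocyte nuclei was -0.11 with TMM, -0.07 with DESeq2 factors and -0.44 with no minimum of UMIs, against -0.28, and in deep over shallow nuclei 0.31, 0.32 and 0.59, against 0.42. At most 1% mitochondrially encoded UMIs left under 50 wild-type nuclei and gave no value for the comparisons between the libraries. No paired analysis was possible because each group has 1 library. Depth limits Saa3, Orm2, Orm3 and Socs3, which rest on 3 to 68 UMIs per sum of hepatocyte-like nuclei, and animals cannot be told apart from genotypes.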
